A study of Mus musculus with 2 samples.

Results

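miR-223 and miR-142 are the miRNAs by which myeloid cells and blood cells in general are most often recognised. They were followed here in exosomes, the small vesicles that cells release, from mouse macrophages polarised in 2 ways. The members were chosen by name, as the 5 entries of the deposited lists that belong to these loci: mmu-miR-223-3p, mmu-miR-223-5p, mmu-miR-142a-3p, mmu-miR-142a-5p and mmu-miR-142b. They are 5 of the 1976 mature miRNAs listed. Macrophages were grown from the bone marrow of C57BL/6 mice of 5 to 6 weeks with the growth factor M-CSF (10 ng/mL, 7 days). M1 macrophages then received IFN-γ and M2 macrophages IL-4, each at 20 ng/mL for 1 day. Both kinds were next kept without serum for 2 days, and the exosomes were collected from that medium. There was 1 small RNA library from M1 exosomes and 1 from M2 exosomes, with no untreated group. No value below therefore has a replicate error, and every difference is between 2 libraries and was not tested between conditions.

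A miRNA hairpin is cut into a short duplex of a 5p and a 3p arm, and usually 1 arm is loaded into Argonaute and kept while the other decays. The loaded arm finds its targets mainly through its seed, bases 2 to 8. miR-223 is a myeloid miRNA, high in neutrophils and monocytes, that restrains granulocyte production and the NLRP3 inflammasome, and its 3p arm is generally regarded as the guide. miR-142 is made throughout the blood lineages and is required for the normal development and function of several of them. Both of its arms are known to be loaded. miR-142b is annotated on the strand opposite miR-142a and has no established function.

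The mature sequences are shown with the seed in capitals, because the arms and the opposite-strand entry are told apart by sequence alone. They are from RefSeq on GRCm38.p6, which held all 5 members and 1677 of the listed miRNAs, and each is written 5′ to 3′.
miR-223-3p: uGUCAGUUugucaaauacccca
miR-223-5p: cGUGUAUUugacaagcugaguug
miR-142a-3p: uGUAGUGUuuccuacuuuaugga
miR-142a-5p: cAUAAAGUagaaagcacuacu
miR-142b: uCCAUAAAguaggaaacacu

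The 5 seeds all differed, so the members form no seed family. None was carried by any of the other listed miRNAs that have a sequence. With bases 2 to 7 alone, 1 further entry matched, miR-344f-5p with miR-223-3p, and it was listed at 0 in both libraries. For counting error alone, a 0 allows up to 3 reads, worth 2.40 units in the M1 and 3.67 units in the M2 library. The 3p arms of miR-223 and miR-142a and miR-142b begin with U, and both 5p arms begin with C. Lengths ran from 20 to 23 bases and the GC content from 33.3% in miR-142a-5p to 43.5% in miR-223-5p.

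The hairpins are printed with the mature arms in capitals, to show how close the arms lie on the precursor. That of miR-223 lies at chrX:96242817-96242926 on the plus strand, in an exon of the non-coding gene F630028O10Rik. That of miR-142a lies at chr11:87756864-87756927 on the plus strand, in the intron of its host gene, the lincRNA Mir142hg. Positions are on GRCm38 and the overlaps are from GENCODE M21.
Mir223: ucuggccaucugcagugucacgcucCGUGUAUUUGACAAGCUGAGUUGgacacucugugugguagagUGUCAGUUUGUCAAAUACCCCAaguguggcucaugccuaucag
Mir142: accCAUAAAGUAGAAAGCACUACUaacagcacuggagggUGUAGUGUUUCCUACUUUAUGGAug

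The arms are separated by 19 bases in miR-223 and by 15 in miR-142a. The miR-142b hairpin covers the same place on the minus strand, at chr11:87756841-87756955. All 20 bases of miR-142b are the reverse complement of bases within miR-142a-3p. In the same sense, miR-142b shares a run of 10 bases with miR-142a-5p, the stretch CAUAAAGUAG, and over these bases miR-142a-5p is also the reverse complement of miR-142a-3p. That run begins at base 3 of miR-142b and at base 1 of miR-142a-5p, so it does not give them the same seed.

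**Figure D1:**
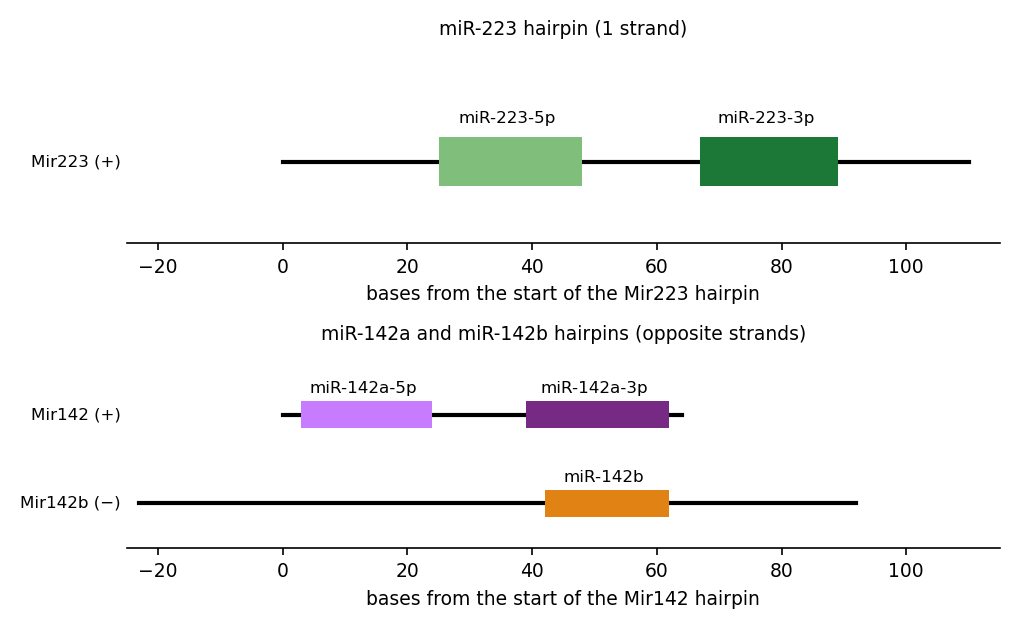
Position of the mature miRNAs (coloured boxes) on their hairpins (black lines), in bases from the start of the Mir223 hairpin (upper panel) and of the Mir142 hairpin (lower panel), with the strand in brackets. The 2 arms of miR-223 are 19 bases apart and those of miR-142a 15 bases, and miR-142b lies on the other strand within miR-142a-3p.

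The values the authors deposited are log2(level + 1), in units whose normalization no source used here states. Comparison was limited to miRNAs with a level of 10 units or more in either library, and the ratio is the M1 minus the M2 log2 value. A 2-fold difference is a log2 ratio of at least 1 in size. Of 337 miRNAs compared, 26.1% (88) were higher by 2-fold or more in M1 exosomes and 22.8% (77) in M2 exosomes. The median log2 ratio of the 337 was 0.04. All 5 members were compared, miR-142b only because its M2 level just passed the minimum. Among miRNAs near 0 in the other library, the spacing of the lowest levels put 1 read at 0.80 units (M1) and 1.22 units (M2). Higher up the read counts, and with them the counting error, are unknown. In RNA from a mixed vesicle preparation, fewer vesicles from a cell type and less of a miRNA in each vesicle cannot be told apart.

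The 2 arms of miR-142a differed in opposite directions between the libraries, while the 2 arms of miR-223 differed alike. miR-142a-5p was higher in M1 exosomes, miR-142a-3p was higher in M2 exosomes, and both miR-223 arms were moderately higher in M2 exosomes. Of the 5 members, 2 were past 2-fold, 1 in each direction, against 49.0% of all compared miRNAs in either direction. That share is no higher than the background, so the count itself does not set the members apart.

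miR-142a-5p had a deposited log2 value of 9.57 in the M1 library against 7.84 in the M2 library. These are levels of 757 and 229 units. The M1 library was thus the high one, by 3.30-fold (log2 ratio 1.72), and 56 of the 337 compared miRNAs, itself included, had a ratio at least as high. Among all listed miRNAs it stood at place 70 by level in M1 exosomes but at place 119 in M2 exosomes. It was the most abundant of the 5 members after IFN-γ and the fourth after IL-4.

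miR-142a-3p had a log2 value of 7.16 in the M1 library against 8.23 in the M2 library, or 142 and 299 units. Here the M2 library was the high one, by 2.09-fold (log2 ratio -1.07). This ratio lies next to the 2-fold line, and it was -0.97 with each library scaled to its summed level. Its place by level was 134 after IFN-γ and 107 after IL-4. In M1 exosomes it was well below both miR-223 arms and the 5p arm of its own hairpin.

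miR-223-3p had a log2 value of 9.30 in the M1 library against 9.99 in the M2 library, or 630 and 1019 units. miR-223-5p had 9.27 and 9.93, or 615 and 975 units. For both arms the M2 library was the higher one, but within 2-fold, with log2 ratios of -0.69 and -0.66. They were the 2 most abundant members in M2 exosomes, at places 49 and 52, and stood at places 78 and 80 in M1 exosomes. In neither library was miR-223 among the most abundant miRNAs: its 2 arms together made up 0.18% of the M1 and 0.27% of the M2 summed level.

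miR-142b was low in both, at log2 values of 3.39 (M1) and 3.48 (M2). Its levels of 9.48 and 10.1 units correspond to about 11.8 and 8.28 reads at the worth of a read given above. That worth came from miRNAs near 0 in the other library. Neither value is a whole number of reads, so both are approximate. No difference was detectable at so few reads. The log2 ratio was -0.09, and 0.0031 with each library scaled to its summed level.

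**Figure D2:**
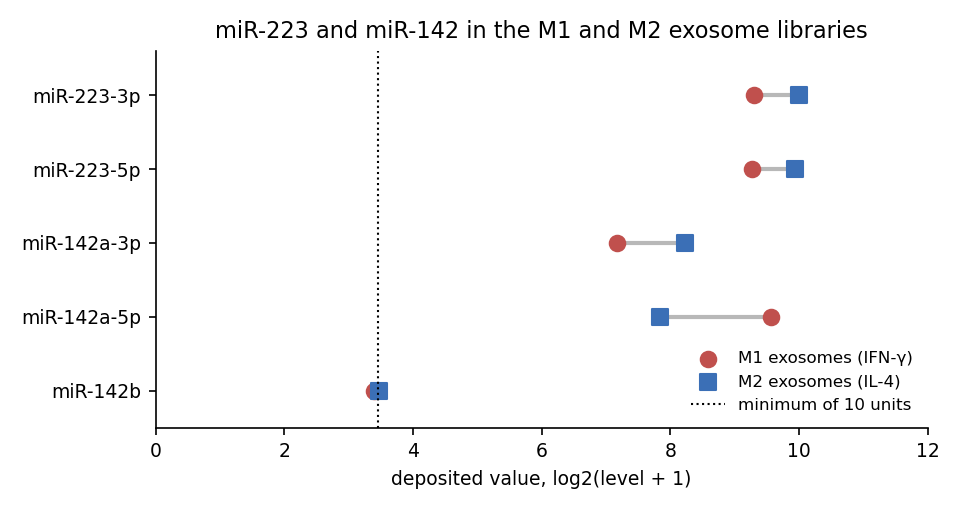
Deposited value of each member, log2(level + 1), in M1 exosomes (red circles) and M2 exosomes (blue squares), with the minimum of 10 units dotted. There is 1 library per group and no error bar; miR-142a-5p lies to the right in M1 exosomes, at 9.57 against 7.84, and the other members lie level or to the right in M2 exosomes.

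The levels of the 2 arms of each hairpin were added. The miR-142a arms summed to 899 units (M1) and 528 units (M2), which is 1.70-fold higher in M1 exosomes. The miR-223 arms summed to 1245 and 1995 units, which is 1.60-fold higher in M2 exosomes. The 2 sums thus differed by less than 2-fold between the libraries, in opposite directions. The miR-223 sum was 1.38 times that of miR-142a after IFN-γ and 3.78 times after IL-4. All 5 members together made up 0.31% of the M1 and 0.34% of the M2 summed level.

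**Figure D3:**
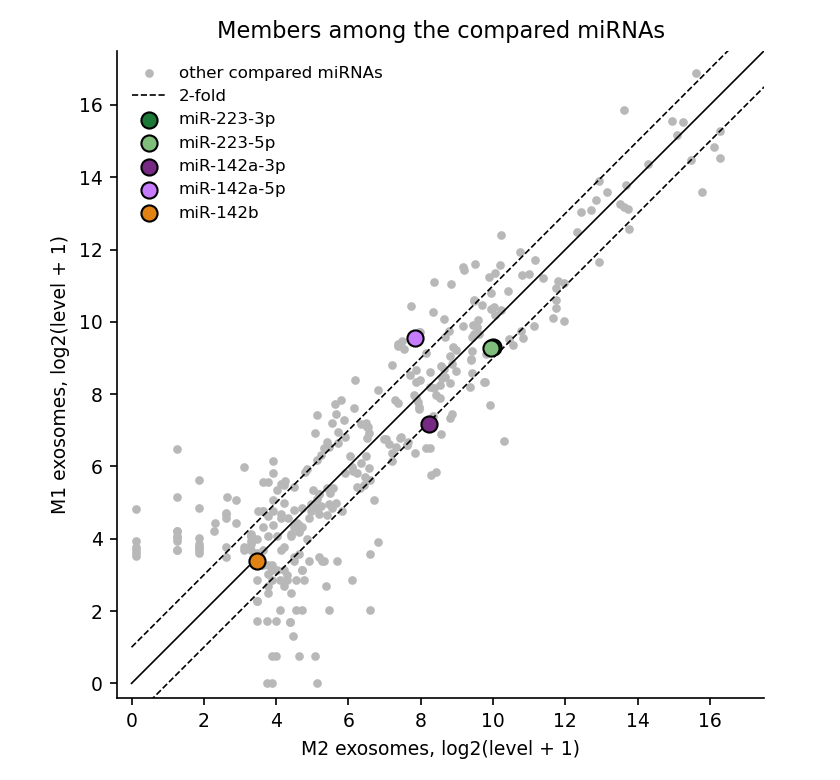
Log2(level + 1) of the 337 compared miRNAs in M2 exosomes (horizontal) and M1 exosomes (vertical), with the line of equal values and dashed 2-fold lines. miR-142a-5p lies above the upper 2-fold line, miR-142a-3p just past the lower one, and the 2 miR-223 arms almost coincide between the diagonal and the lower line.

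The members were also set beside miRNAs of like abundance, since the normalization is not stated and did not treat all entries alike near 0. For compared miRNAs with M2 values from 0.113 to 0.135, the M2 value rose with the M1 value, from 3.512 to 4.81. Whether levels like those of the members were treated alike is not known. Of the 20 compared miRNAs nearest to miR-142a-5p in mean log2 value, the median log2 ratio was 0.03 (range -3.61 to 2.02), and 4 had a ratio at least as high. For miR-142a-3p the median of the 20 was -0.06 (range -1.74 to 2.20), and 5 had a ratio at least as low. For miR-223-3p the median was 0.47 (range -1.20 to 2.72) and for miR-223-5p 0.25 over the same range, with 3 at least as low in each case. For miR-142b it was -0.42 (range -2.68 to 2.98). Less these medians, miR-223-3p had a log2 ratio of -1.16, past 2-fold, miR-223-5p one of -0.92 and miR-142b one of 0.34. This comparison was chosen after seeing the data.

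Within a library the 2 arms of a hairpin can be compared without a further scaling between libraries. The deposited values were treated as normalized together, however, so the arm differences are not free of that step. Its part in them was not tested. In M1 exosomes miR-142a-5p exceeded miR-142a-3p by 2.40 on the log2 scale. In M2 exosomes it lay below the 3p arm, with a 5p minus 3p difference of -0.39. The 5p arm made up 84.2% of the summed miR-142a level after IFN-γ and 43.3% after IL-4. The arms are 21 and 23 bases long. The order of the arms thus differed between the libraries, and the 5p minus 3p difference shifted by 2.79.

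The miR-223 arms behaved differently. The 5p minus 3p difference was -0.04 (M1) and -0.06 (M2), so the arms were nearly equal in both, and the 3p arm held 50.6% and 51.1% of their sum. The 3p arm, generally regarded as the guide, was thus only slightly above its partner in both libraries. The sequences of the 2 arms are distinct, and the longest run that miR-223-5p shares with the reverse complement of miR-223-3p is 11 bases.

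In 42 hairpins both arms reached 10 units in both libraries. The 5p minus 3p difference shifted by at least 2-fold in 16 of them (38.1%), and the order of the arms changed in 3 (7.14%). These 3 are miR-142a, let-7d and miR-125a, of which the last 2 were named after their values were seen. Among these 42 the shift of miR-142a was the second in size after that of let-7d (-3.03), and it had the opposite sign. The shift of miR-223, 0.029, was the least of the 42, but practically level with that of let-7b (0.030), also named after its values were seen. The median size of the difference between arms was 3.37 (M1) and 3.33 (M2), and no other of the 42 hairpins had arms as nearly equal as miR-223 in either library. Among the 13 hairpins with both arms at 100 units or more in both libraries, miR-142a was again second and miR-223 last. Over all 186 hairpins with at least 1 arm at 10 units in 1 library, which include arms listed at or near 0, miR-142a stood at place 31 by the size of its shift and miR-223 at place 185. In that wider set the order of the arms changed in 5, the 3 named above and miR-669a and miR-671, which were also named after their values were seen.

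**Figure D4:**
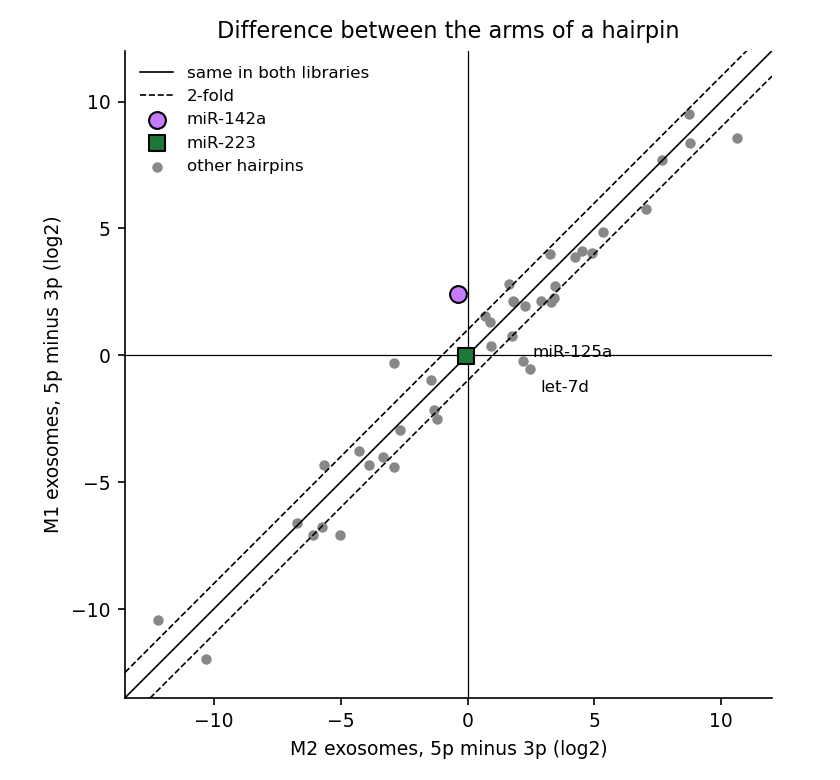
Difference between the 5p and the 3p arm (log2) in M2 exosomes (horizontal) and M1 exosomes (vertical) for the 42 hairpins with both arms at 10 units or more in both libraries. Hairpins on the diagonal have the same arm difference in both; miR-142a lies far above it, at 2.40 against -0.39, and miR-223 lies near the origin.

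Because miR-142b is complementary to miR-142a-3p, counting without regard to strand would give the reads of one to the other. No source used here says whether the authors' counting used strand. The 2 entries did not hold the same level. miR-142b lay 3.78 below miR-142a-3p on the log2 scale in M1 exosomes and 4.75 below it in M2 exosomes, and its level was 6.65% and 3.38% of that of miR-142a-3p. Summing both entries left miR-142a-3p at a log2 ratio of -1.02.

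Pairs of this kind, listed entries that are reverse complements over at least 16 bases, numbered 25 with a value above 0. In 9 of them the more abundant entry reached 100 units in both libraries. The more abundant entry was the one with the larger sum of its 2 log2 values, so that the other entry is lower follows largely from this sorting. Only the size of the gap is described. On the log2 scale it was 1.48 to 6.49 in M1 exosomes (median 3.72) and 0.91 to 7.08 in M2 exosomes (median 4.03). The gap of the miR-142 pair was thus near the median in the M1 library, and in the M2 library it was the second largest of the 9. The pairs are not independent, since miR-30f and miR-3074-2-3p each belong to 2 of them. For example, miR-126b-5p lay 4.50 and 3.77 below the endothelial miR-126a-3p, and miR-3074-5p 3.72 and 4.11 below miR-24-3p. The gap of miR-142 widened from M1 to M2 exosomes by about the ratio of miR-142a-3p, since miR-142b itself hardly differed.

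**Figure D5:**
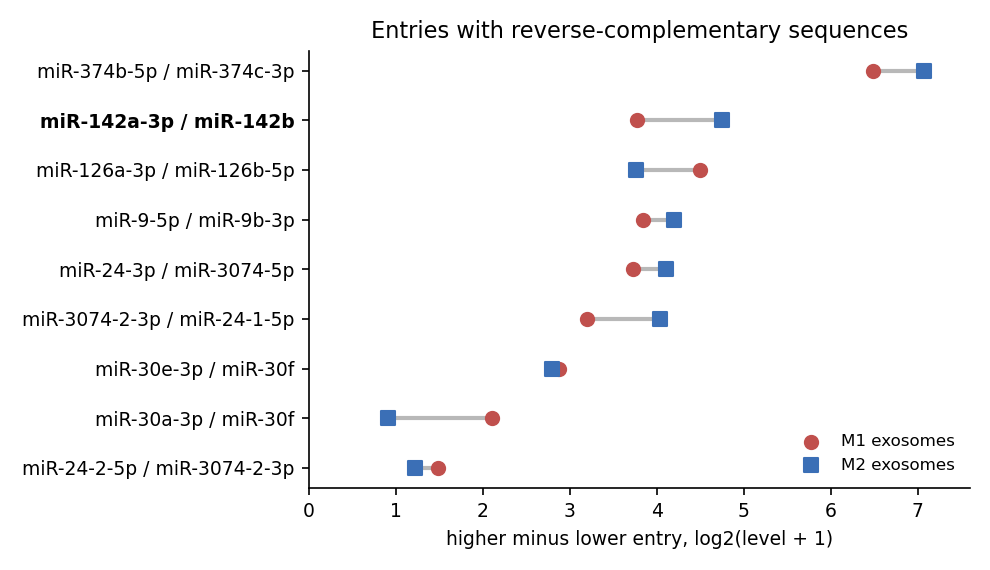
Gap in log2(level + 1) between the 2 entries of each reverse-complementary pair whose more abundant entry reached 100 units in both libraries, in M1 exosomes (red circles) and M2 exosomes (blue squares). The miR-142 pair (bold) has gaps of 3.78 and 4.75, within the range of the other pairs.

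The miRNAs whose 2 values were most like those of each member were found by their distance in the plane of the 2 log2 values. Over only 2 libraries this measures likeness of level and ratio and nothing more. The nearest to each miR-223 arm was the other arm, at a distance of 0.07, followed by miR-652-3p and miR-6239. Nearest to miR-142a-5p were miR-199a-3p, miR-99b-3p and miR-379-5p, at 0.19, 0.19 and 0.38. Nearest to miR-142a-3p were miR-103-3p, miR-21c and miR-378b, at 0.15, 0.26 and 0.42. The 2 arms of miR-142a were thus not near each other. miR-18a-3p had exactly the values of miR-142b.

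Other miRNAs of macrophages and of blood cells were read from lists set by name. Of 9 macrophage and myeloid miRNAs, 4 were past 2-fold towards M1 exosomes, 1 was past it towards M2 exosomes and 4 were not past it. The background was 26.1% and 22.8%, or 49.0% in either direction, and 5 of 9 is near that share. Their median log2 ratio was 0.43, against 0.04 over all compared. miR-155-5p and miR-146a-5p, which inflammatory signals induce, had 1.35 and 1.25, on the side of miR-142a-5p. miR-146b-5p and miR-21a-5p, which such signals also induce, had -0.62 and -0.99, on the side of miR-223 and miR-142a-3p, both within 2-fold. miR-511-3p, from an intron of Mrc1, was the 1 past 2-fold towards M2 exosomes, with 3.89 units in the M1 and 10.1 units in the M2 library. It was compared only because its M2 level just reached the minimum, so its ratio of -1.18 is no support for a direction. miR-146a-5p, at 120526 and 50604 units, far exceeded every member. The 4 general haematopoietic miRNAs all lay within 2-fold, with log2 ratios of 0.50 for miR-191-5p, 0.45 for miR-342-3p, 0.15 for miR-181a-5p and -0.41 for miR-16-5p.

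Markers of other cell types were present. The summed shares of the erythroid, hepatocyte, stromal and endothelial entries were higher in M1 exosomes, the direction of miR-142a-5p. This direction was not particular to other cell types. The macrophage and myeloid entries held 26.96% of the M1 and 18.27% of the M2 summed level, and the general haematopoietic entries 0.75% and 0.57%. Only the lymphocyte entry had the lower share in M1 exosomes. The 4 erythroid entries made up 0.76% of the M1 and 0.12% of the M2 summed level. All 3 that were compared were past 2-fold towards M1 exosomes. Over all compared miRNAs 26.1% were past 2-fold in that direction, and these lists hold too few entries to be read against that share. The 3 hepatocyte entries, nearly all miR-122-5p, held 8.78% and 1.78%. Of these, only miR-122-5p was past 2-fold towards M1 exosomes (log2 ratio 2.24). miR-192-5p (0.35) and miR-194-5p (0.34) were within 2-fold. The 5 stromal entries held 0.19% and 0.11%, with 2 of 4 compared past 2-fold towards M1 exosomes. miR-143-3p, the most abundant of them in the M2 library, went the other way, within 2-fold (log2 ratio -0.33). The 2 endothelial entries held 0.14% and 0.08%, both within 2-fold. The lymphocyte miR-150-5p was low and had a log2 ratio of -1.70, on the side of miR-223 and miR-142a-3p. The part of these other sources in the values of the members was not tested. The summed share of miR-223 and miR-142 was below that of the erythroid entries in M1 exosomes and above it in M2 exosomes.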

How the data were processed

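Small RNA libraries were made from 500 ng of RNA with a NEBNext kit, per the labels' protocols. The submitters' processing notes name Bowtie2, bedtools and mm10 but no version or role. For read assignment, use of strand and normalization the method is not given in the sources used. The authors deposited 1 log2 value per mature miRNA and library, taken here as log2(level + 1). Levels summed to 686353 units in M1 and 734637 units in M2 exosomes. In the M2 library 175 values above 0 lay below 0.5 of the worth of 1 read, so the libraries were treated as normalized together. The read worth was the commonest lowest level among miRNAs near 0 in the other library. Of the levels of these miRNAs under 12 steps, 168 in M1 and 128 in M2, 100% and 96.1% were whole multiples within 0.1 step. Low levels of miRNAs read in both libraries were not part of this check. Among them miR-142b, at 11.84 and 8.28 steps, was not a whole multiple in either library.

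With 1 library per group no test was made. The text names the 5 members, their 3 nearest miRNAs in the 2 values, entries complementary over 16 bases or sharing a seed, and the marker lists. Members and lists were chosen with earlier results of these data known. An alternative was counted as moving a value if it crossed 2-fold or changed by 1.5-fold or more. Calculations used Python 3.11.15, numpy 2.4.6 and pandas 2.3.3.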

Additional observations from a re-analysis of the deposited data

How the results depend on the processing

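No paired analysis was possible because M1 and M2 exosomes have 1 library each, so none could be omitted either. Of 70 alternative values, 60 kept their side of 2-fold and moved by under 1.5-fold (counts by at most 1.5 times), 10 moved and 0 reversed. Scaling each library to its summed level raised the median log2 ratio by 0.10. It put miR-142a-3p at -0.97, within 2-fold, which left 1 member past 2-fold in place of 2, and it turned the sign of the ratio of miR-142b (0.0031), which was not past 2-fold. Subtracting the median of 20 miRNAs of like level, chosen after seeing the data, put miR-223-3p at -1.16 and miR-142b at 0.34. miR-142a-5p stayed between 1.66 and 1.82 in the alternatives run, and the shift of the miR-142a arms between 2.70 and 2.79. With 10 units added before the logarithm, the gap between miR-142a-3p and miR-142b was 2.97 in M1 and 3.94 in M2 exosomes. With 100 units required of both arms, also chosen after seeing the data, the hairpins whose arm difference shifted 2-fold numbered 5 of 13. With no minimum above 0, the miRNAs at least 2-fold higher in M1 and in M2 exosomes numbered 201 and 229 of 747 (26.9% and 30.7%). With a minimum of 100 units they numbered 37 and 33 of 162 (22.8% and 20.4%). Depth limits miR-142b most.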

Other observations

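Among hairpins outside the miR-223 and miR-142 loci, 2 others with both arms at 100 units or more shifted by over 2 on the log2 scale between arms. In let-7d the 5p arm had a log2 value of 10.01 in M1 and 11.95 in M2 exosomes, and the 3p arm 10.57 and 9.49. In miR-30e the 5p arm had 9.24 and 7.54, and the 3p arm 9.54 and 10.45, so its shift of 2.60 had the sign of that of miR-142a. They were named after their values were seen, and no test was possible with 1 library per group.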
